A study of Mus musculus with 12 samples.

Results

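The genes described here are 10 that CD8 T cells use to recognise and kill a target: Cd8a, Cd8b1, Gzma, Gzmb, Gzmc, Gzmk, Prf1, Nkg7, Ifng and Fasl. They were chosen by mouse gene symbol, and each symbol matched 1 of the 55,487 gene identifiers of the count table. The tissue was tumours of Sq-1979, a squamous carcinoma line of mouse head and neck, injected subcutaneously in Matrigel into male C3H/HeN hosts 6 weeks of age. From day 20 the mice received regorafenib (5 mg/kg per day) together with anti-PD1, regorafenib at that dose alone, anti-PD1 alone, or vehicle. The groups are called combination, regorafenib, anti-PD1 and vehicle, with 3 samples each and 12 in all. Regorafenib inhibits several kinases, VEGF receptors among them, and anti-PD1 is an antibody against an inhibitory receptor of T cells. All 12 tumours came from 1 injected line in hosts of 1 strain and sex. Nothing in the labels ties the 3 samples of a group to 3 separate mice, so p-values measure the spread between these samples, which may be technical.

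A CD8 T cell reads peptide on MHC class I through its receptor, with the CD8 alpha and beta chains as coreceptor, and kills by releasing granules onto the target. Perforin opens the target membrane and granzymes, serine proteases stored in the same granules, then enter and cleave their substrates. Fas ligand kills by a separate route, through the death receptor Fas, and interferon gamma acts on surrounding cells, where it raises antigen presentation. Natural killer cells and some other lymphocytes use the same granule proteins, and libraries of tumour tissue do not record which cell a read came from. A lower level in such libraries can mean fewer cells of a type or less RNA per cell, which cannot be told apart.

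The libraries held 22591835 to 28209036 counts, and 16,974 genes had enough counts to be tested, all 10 of these among them. Levels are given in CPM, counts scaled to the size of each library with TMM factors. The lowest count of any of the 10 in any library was 11, for Ifng. In each treated group 1 library stood apart from the others. In combination 1, 3 of the 10 genes (Gzmb, Prf1 and Ifng) lay above the highest vehicle library, against 7 in combination 2 and 9 in combination 3. In regorafenib 3 the number was 3 (Gzmk, Prf1 and Ifng), against 9 in regorafenib 1 and 10 in regorafenib 2. In anti-PD1 2 it was 0, against 9 in anti-PD1 1 and 10 in anti-PD1 3. Each treated group therefore held 1 library with few or none of the 10 genes above vehicle beside 2 with most of them above, and its SD was wide. For Ifng, combination 1 and regorafenib 3 each had the same 16 reads as vehicle 2 and lay above it only after scaling.

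**Figure D1:**
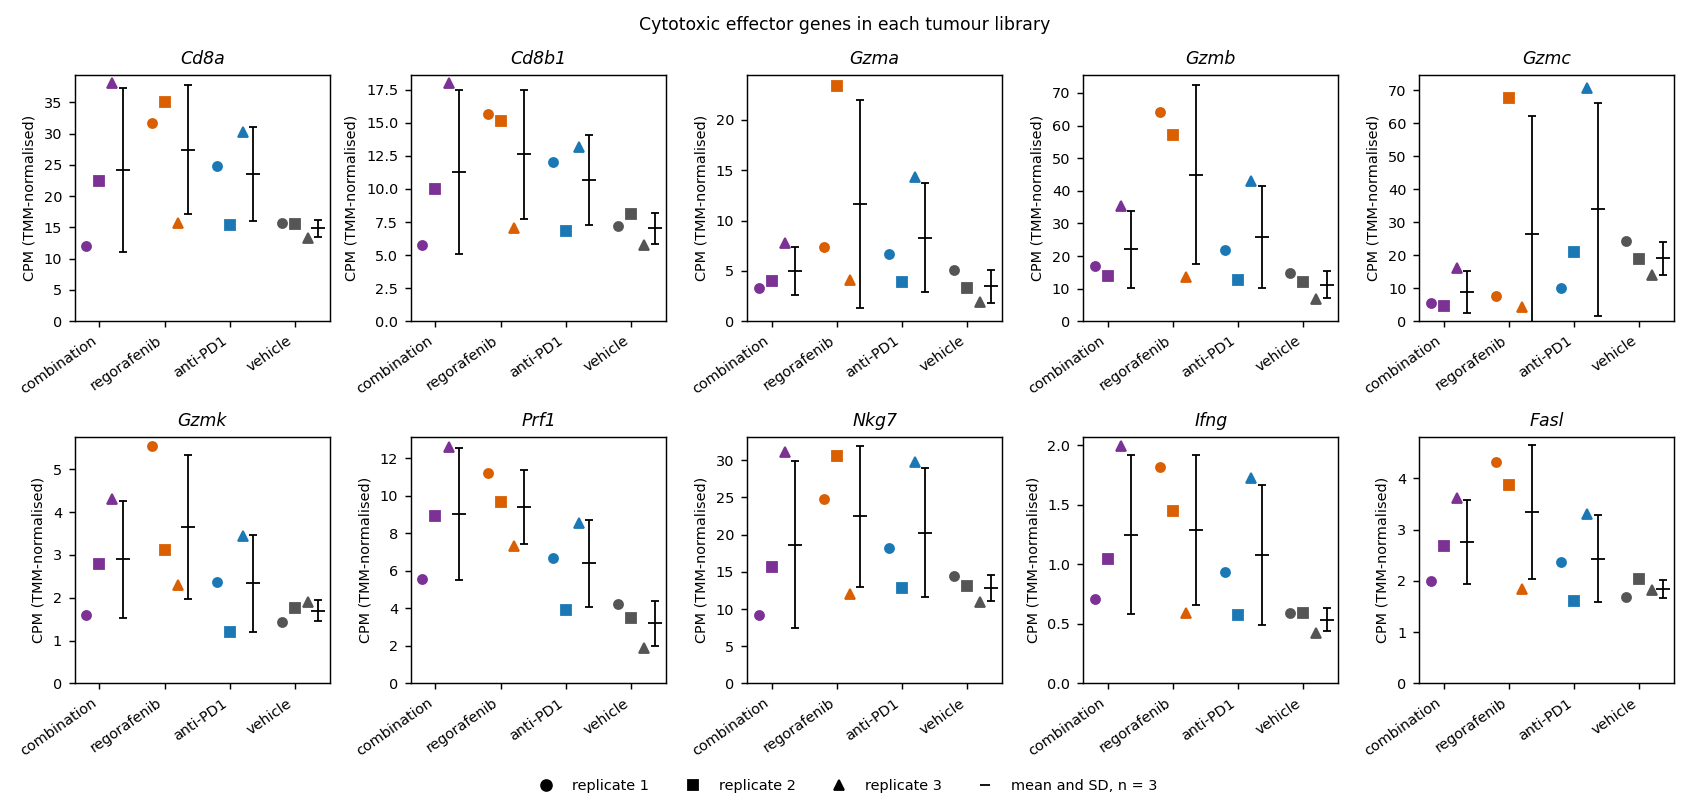
Level of each of the 10 genes in every library, in TMM-normalised CPM (linear axes from 0), with the mean and SD of each group of 3 beside its points (the lower SD bar of Gzmc in regorafenib ends at the axis). Prf1 in combination (5.57 to 12.6 CPM) and in regorafenib (7.31 to 11.2 CPM) lies above vehicle (1.89 to 4.24 CPM), while combination 1, regorafenib 3 and anti-PD1 2 sit near vehicle for most other genes.

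Perforin, the pore-forming protein encoded by Prf1 (chr10:61297833-61304680, plus strand, mouse build GRCm38), was the 1 gene of the 10 whose level passed the test. Prf1 had 5.57, 8.94 and 12.6 CPM in combination, 11.2, 9.67 and 7.31 CPM in regorafenib, 6.70, 3.92 and 8.55 CPM in anti-PD1, and 4.24, 3.50 and 1.89 CPM in vehicle. Every combination and regorafenib library lay above every vehicle library, and anti-PD1 2 overlapped with vehicle. In combination against vehicle Prf1 rose 2.82-fold (log2 fold change 1.50 ± 0.39 SE), with an adjusted p of 0.0464 by edgeR's quasi-likelihood test with Benjamini-Hochberg adjustment over all genes tested. It was 1 of 10 genes past the threshold of 0.05 there, where 7.34% of all genes tested passed and 5.03% were higher. The average effect of regorafenib, over backgrounds without and with anti-PD1, was a 2.04-fold rise (log2 1.03 ± 0.27, adjusted p 0.0423 by edgeR), again 1 of 10, beside 9.49% of all genes passing and 6.16% higher. It was also 1 of 10 at an unadjusted p under 0.05, beside 28.0%. A count of 1 in 10 is near the share of all genes called in both contrasts, and below the unadjusted share. These counts therefore do not set the 10 genes apart from all genes tested. Both calls were close to the threshold. The combination call held without anti-PD1 2, regorafenib 1 or regorafenib 3 (adjusted p 0.0430 to 0.0487 by edgeR) and was lost without any one of the other 9 libraries (0.0506 to 0.148). The regorafenib call held without anti-PD1 3, combination 1 or regorafenib 3 (0.0374 to 0.0480) and was lost without any one of the other 9 (0.0555 to 0.0994). Without a filter on low counts the adjusted p by edgeR was 0.0655 and 0.0603 for these calls, and with the replicate number as a block 0.105 and 0.0922. The calls were kept by DESeq2 (adjusted p 0.00385 and 0.00423). By edgeR they were kept with a covariate from 4 Y-linked genes (0.0176 and 0.0122) and with RLE factors (0.0477 and 0.0435). DESeq2 and the covariate also called more of all genes in both contrasts.

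Of the single-drug contrasts, regorafenib gave Prf1 a fold change similar to that of the combination and anti-PD1 a smaller one, both with larger adjusted p. Regorafenib against vehicle gave log2 1.55 ± 0.39 (unadjusted p 0.00248 and adjusted p 0.173 by edgeR). Anti-PD1 against vehicle gave 0.99 ± 0.39 (unadjusted p 0.0280 and adjusted p 0.865 by edgeR). These contrasts use the same 3 vehicle libraries as the combination does. The unadjusted p of Prf1 in combination against vehicle was 0.00308 by edgeR. Adjustment depends on all genes tested, and 1246 passed in combination against vehicle, beside 1 in regorafenib against vehicle. Combination against regorafenib gave -0.05 ± 0.38 and combination against anti-PD1 0.50 ± 0.38, with adjusted p of 0.979 and 0.510 by edgeR, so a further difference was not resolved at this spread.

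Granzyme B, a protease that cleaves after aspartate and activates caspases in the target, is encoded by Gzmb (chr14:56258838-56262260, minus strand). Gzmb had 16.8, 13.7 and 35.4 CPM in combination, 64.2, 57.0 and 13.4 CPM in regorafenib, 21.8, 12.5 and 42.9 CPM in anti-PD1, and 14.9, 12.1 and 6.67 CPM in vehicle. The highest and the lowest regorafenib library differed more than the group means did, and each treated group overlapped with vehicle in 1 library. Its fold change in regorafenib against vehicle was the largest of the 10 genes in that contrast, at log2 2.00 ± 0.63, with an adjusted p of 0.217 by edgeR and 0.0324 by DESeq2. In combination against vehicle it was 0.97 ± 0.62 (adjusted p 0.330 by edgeR).

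Granzyme A and granzyme K are tryptase-like proteases whose genes lie on chromosome 13. Gzma had 3.27, 4.04 and 7.75 CPM in combination, 7.40, 23.4 and 4.10 CPM in regorafenib, 6.66, 3.92 and 14.4 CPM in anti-PD1, and 5.12, 3.32 and 1.93 CPM in vehicle. Regorafenib 2 and anti-PD1 3 stood above the other 10 libraries, and the groups overlapped. Gzmk had 1.59, 2.78 and 4.31 CPM in combination, 5.54, 3.12 and 2.29 CPM in regorafenib, 2.38, 1.19 and 3.45 CPM in anti-PD1, and 1.43, 1.77 and 1.89 CPM in vehicle. Every regorafenib library lay above vehicle for Gzmk. Regorafenib against vehicle gave log2 1.75 ± 0.69 for Gzma and 1.10 ± 0.47 for Gzmk, with adjusted p of 0.297 and 0.325 by edgeR.

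Granzyme C belongs to the same cluster on chromosome 14 as granzyme B and is known in the mouse from strongly stimulated killer cells. Gzmc (chr14:56231441-56234656, minus strand) had 5.44, 4.77 and 16.1 CPM in combination, 7.78, 67.7 and 4.28 CPM in regorafenib, 10.01, 20.8 and 70.8 CPM in anti-PD1, and 24.2, 18.9 and 13.96 CPM in vehicle. Regorafenib 2 and anti-PD1 3 were far above vehicle, combination 3 and anti-PD1 2 were within its range, and the other 5 treated libraries were below it. The lowest and the highest library differed 16.5-fold, the widest range of the 10 genes. In combination against vehicle the log2 fold change was -1.11 ± 1.00 (adjusted p 0.493 by edgeR), opposite in sign to the other 9 genes. In regorafenib against vehicle it was 0.48 ± 0.98 and turned to -1.66 without regorafenib 2, and in anti-PD1 against vehicle it was 0.83 ± 0.98 and turned to -0.30 without anti-PD1 3. Of its transcript 50-mers, 4.14% also occur in Gzmd, Gzme or Gzmg, so a small part of its reads could be split between copies. Gzmd and Gzme stayed at or below 0.339 and 0.553 CPM in every library.

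Promoters of 9 of the 10 genes were found in RefSeq (GRCm38.p6), and those of Prf1, Gzmb and Gzmc are shown, since these genes gave the called rise, the largest regorafenib fold change and the separate pattern. Each run goes from 250 bases before the RefSeq start site to 50 after it, 5′ to 3′, and capitals mark TGTGGT, the core that RUNX factors bind, on either strand (ACCACA on the other). Prf1 is at chr10:61297586-61297885 on the plus strand, Gzmb at chr14:56262285-56262584 and Gzmc at chr14:56234608-56234907 on the minus strand.
Prf1: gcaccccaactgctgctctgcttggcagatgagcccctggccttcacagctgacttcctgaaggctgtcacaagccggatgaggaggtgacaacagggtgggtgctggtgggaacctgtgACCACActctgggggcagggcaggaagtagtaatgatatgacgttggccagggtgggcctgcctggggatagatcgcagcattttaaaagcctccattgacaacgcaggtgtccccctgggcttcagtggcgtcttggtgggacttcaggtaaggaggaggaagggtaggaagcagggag
Gzmb: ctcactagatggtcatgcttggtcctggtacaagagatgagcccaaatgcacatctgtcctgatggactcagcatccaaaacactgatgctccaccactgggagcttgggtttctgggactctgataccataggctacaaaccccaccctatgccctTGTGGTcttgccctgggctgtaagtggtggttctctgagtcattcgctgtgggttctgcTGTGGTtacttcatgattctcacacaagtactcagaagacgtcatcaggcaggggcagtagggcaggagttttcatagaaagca
Gzmc: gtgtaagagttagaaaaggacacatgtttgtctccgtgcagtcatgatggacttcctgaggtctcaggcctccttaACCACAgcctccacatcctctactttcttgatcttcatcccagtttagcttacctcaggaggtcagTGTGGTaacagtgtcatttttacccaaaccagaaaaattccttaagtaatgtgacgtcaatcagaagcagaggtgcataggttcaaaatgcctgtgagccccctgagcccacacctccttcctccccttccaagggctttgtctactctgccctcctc
Counted from the RefSeq start site, the core began at -130 in Prf1, at -93 and -34 in Gzmb, and at -174 and -108 in Gzmc. It was in 5 of the 9 promoters (also Gzma and Nkg7), and in 16.8% of the 32851 promoters of the table. The T-box motif GGTGTGA was in 2 of 9 (Gzmk and Nkg7) against 3.98%, the ETS motif AGGAAGT in 3 of 9 (Fasl, Gzmc and Prf1) against 9.35%, and the AP-1 motif TGANTCA in 1 of 9 (Gzmb) against 7.81%. The motif TGGAAA bound by NFAT was in 1 of 9 (Gzma) against 21.4%, and the interferon-stimulated element in 1 of 9 (Gzma) against 3.44%. Both strands were searched, and matches of different motifs were counted separately. For Prf1, Gzmb, Gzmc and Gzmk the bases after the RefSeq start were not found as an unbroken run early in a GENCODE transcript. That search did not compare start positions, but the coordinates show that these windows depend on the annotation. The whole Gzmb window lies upstream of the GENCODE gene, whose 5′ end is at 56262260, so its motif positions hold for the RefSeq start only. The Gzmk window (chr13:113180916-113181215) lies inside the GENCODE gene, away from its 5′ end at 113225908. The RUNX core was in Prf1, which was called, and in Gzma, Gzmb, Gzmc and Nkg7, which were not called by edgeR. Whether a motif bears on a gene's level was not tested.

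Ifng encodes interferon gamma and Fasl encodes Fas ligand. Ifng had 0.707, 1.04 and 1.99 CPM in combination, 1.82, 1.45 and 0.591 CPM in regorafenib, 0.933, 0.576 and 1.72 CPM in anti-PD1, and 0.587, 0.590 and 0.424 CPM in vehicle. Combination and regorafenib libraries lay above vehicle in CPM, regorafenib 3 by the narrowest margin, and anti-PD1 2 lay within the vehicle range. In reads, regorafenib 3 and combination 1 tied with vehicle 2 at 16 each, so only scaling to library size set them above it. The log2 fold change of Ifng against vehicle was 1.23 ± 0.54 in combination, 1.25 ± 0.54 in regorafenib and 1.01 ± 0.55 in anti-PD1. The adjusted p by edgeR was 0.170, 0.335 and 0.865 in that order. Counts of Ifng were low (11 to 55 per library), and 19.9% of its transcript 50-mers are shared with Gm49751, a gene of the same strand that overlaps it. Fasl ran from 1.61 CPM in anti-PD1 2 to 4.31 CPM in regorafenib 1, with group means of 2.76 ± 0.82 CPM in combination, 3.34 ± 1.32 CPM in regorafenib, 2.43 ± 0.847 CPM in anti-PD1 and 1.84 ± 0.177 CPM in vehicle (SD, n = 3 each).

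The coreceptor chains are encoded by neighbouring genes of chromosome 6. Cd8a had 12.1, 22.5 and 38.1 CPM in combination, 31.6, 35.1 and 15.7 CPM in regorafenib, 24.8, 15.4 and 30.3 CPM in anti-PD1, and 15.8, 15.6 and 13.3 CPM in vehicle. The 3 vehicle libraries were close to each other, and each treated group held 1 library at their level or below and 2 above. Cd8a averaged 24.2 ± 13.1 CPM in combination, 27.5 ± 10.4 CPM in regorafenib, 23.5 ± 7.51 CPM in anti-PD1 and 14.9 ± 1.35 CPM in vehicle (SD, n = 3 each). Its log2 fold changes against vehicle were 0.70 ± 0.41, 0.88 ± 0.41 and 0.66 ± 0.41 in that order of treatments, with adjusted p of 0.284, 0.364 and 0.865 by edgeR. Cd8b1 ran from 5.78 CPM in vehicle 3 to 18.003 CPM in combination 3. Nkg7, which encodes a membrane protein of cytotoxic granules, ran from 9.24 CPM in combination 1 to 31.1 CPM in combination 3. In combination against vehicle its log2 fold change was 0.54 ± 0.46, which turned to -0.04 without combination 3.

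Over the 10 genes the fold changes against vehicle were mostly positive and mostly short of the threshold. The median log2 fold change was 0.69 in combination, with 9 of 10 above 0 beside 51.8% of all genes tested. It was 0.99 in regorafenib, with 10 of 10 above 0 beside 51.0%, and 0.75 in anti-PD1, with 10 of 10 beside 51.7%. The medians over all genes tested were 0.02, 0.01 and 0.01 in the same order. The 10 genes are correlated, so these counts are not 10 separate observations. In combination 2 of 10 had an unadjusted p under 0.05 by edgeR, beside 27.9% of all genes. By edgeR 0 of 10 passed in regorafenib against vehicle, where 0.00589% of all genes did, and 6 of 10 had an unadjusted p under 0.05, beside 14.1% of all genes. DESeq2 called 2 there, Prf1 and Gzmb. In anti-PD1 against vehicle edgeR called 0 of 10 and 0.0% of all genes, 1 of 10 had an unadjusted p under 0.05 beside 5.17%, and DESeq2 called 0. The mean of the 3 treatments against vehicle gave 0 of 10 by edgeR beside 0.00589%, 3 of 10 unadjusted beside 19.0%, and 1 by DESeq2, Prf1 (log2 1.35). Groups that did not overlap, treated above vehicle, were found for 2 of 10 in combination (Prf1 and Ifng) beside 19.6% of all genes, for 3 of 10 in regorafenib (Gzmk, Prf1 and Ifng) beside 10.6%, and for 0 of 10 in anti-PD1 beside 7.93%. All 9 treated libraries lay above vehicle for 0 of 10 beside 2.04%, and the 6 libraries with regorafenib above the 6 without for 0 of 10 beside 2.87%. The combination share is near its background. For Ifng, combination 1 and regorafenib 3 each had the same 16 reads as vehicle 2, so its separation in both sets rests on scaling.

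**Figure D2:**
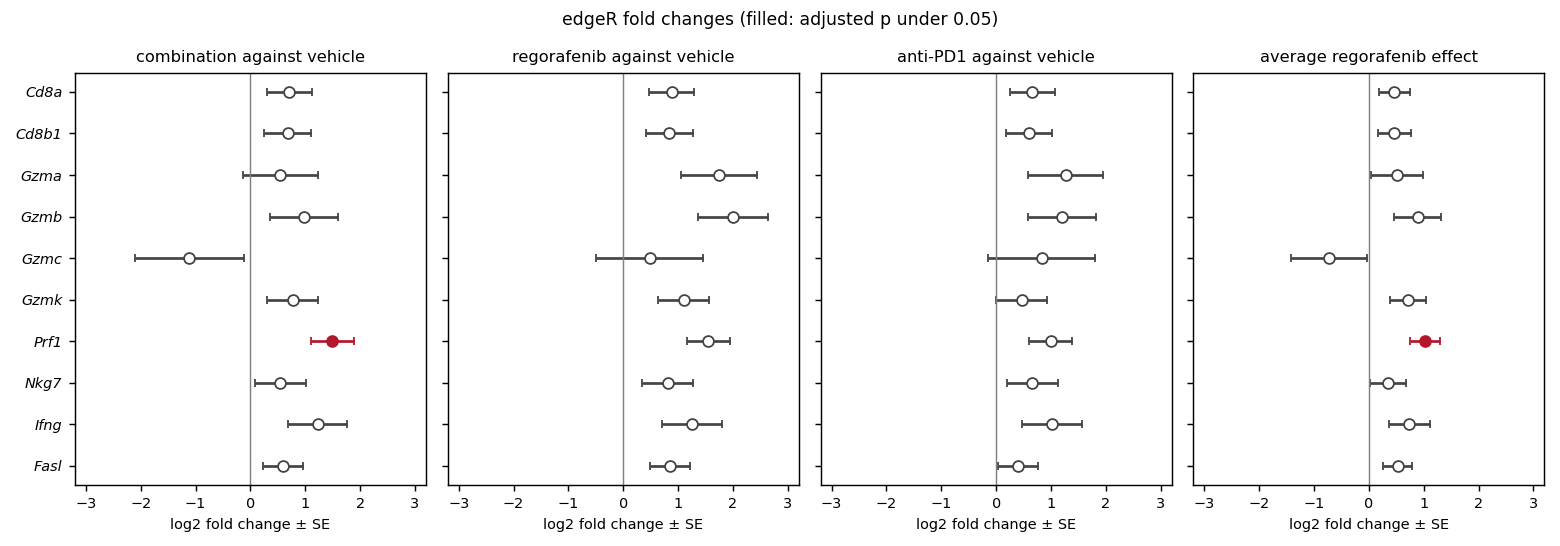
Log2 fold change with its SE by edgeR for the 10 genes, in combination, regorafenib and anti-PD1 against vehicle and for the average regorafenib effect, with filled points for an adjusted p under 0.05. Prf1 is the filled point in combination against vehicle (1.50) and in the average regorafenib effect (1.03), and Gzmc is on the negative side in both.

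Adding one drug to the other was resolved for none of the 10 genes by edgeR. In combination against anti-PD1 0 of 10 passed beside 1.92% of all genes, with 0 of 10 at an unadjusted p under 0.05 beside 19.3%. In combination against regorafenib 0 of 10 passed beside 0.0%, with 0 of 10 unadjusted beside 5.45%. All 10 fold changes were below 0 there, from -1.59 for Gzmc to -0.03 for Ifng, beside 50.4% of all genes. Of the T cell and leukocyte lists given below, 0 of 15 and 0 of 6 genes were above 0 there. The interaction asks whether regorafenib does more or less on top of anti-PD1 than alone. It was below 0 for all 10 genes beside 50.9% of all genes, with a median of -0.98 on the log2 scale against -0.00489 over all genes. This was not particular to the 10. Above 0 were 0 of 15 T cell, 0 of 7 tested NK cell and 0 of 6 leukocyte genes (medians -1.04, -1.12 and -0.88). Of 8 squamous genes 6 were above 0. Among the 10, the lowest unadjusted p came from Gzma and Gzmb. Gzma gave -2.48 ± 0.96 (unadjusted p 0.0268 by edgeR) and Gzmb -2.23 ± 0.88 (unadjusted p 0.0282), and 2 of 10 at that level stand beside 2.65% of all genes. After adjustment by edgeR 0 of 10 passed beside 0.0%, with an adjusted p of 0.9998 for each. The average effect of anti-PD1 gave 0 of 10 beside 0.0%, with 0 of 10 unadjusted beside 8.75%. DESeq2 called 0 of 10 in these 4 contrasts.

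How far the genes rise together was measured against Cd8a, in log2 CPM over the 12 libraries. By a permutation test with 100000 resamples, two-sided and adjusted over the 9 relations, 8 of 9 passed. Pearson's r was 0.989 for Cd8b1 (Spearman's rho 0.965), 0.976 for Nkg7 (rho 0.972), 0.939 for Ifng (rho 0.846) and 0.920 for Fasl (rho 0.818). It was 0.863 for Gzmb (rho 0.790), 0.859 for Gzmk (rho 0.839), 0.833 for Gzma (rho 0.930) and 0.812 for Prf1 (rho 0.860). The permutation p for r was between 1e-05, the smallest the resamples can give, and 0.00134, and between 4.5e-05 and 0.00151 after adjustment. Those for rho were between 1e-05 and 0.00331, and between 3e-05 and 0.00372 after adjustment. Leaving out combination 3 and regorafenib 2, the libraries farthest from the Cd8a median, left r at 0.745 for Prf1 and at 0.832 or more for the other 7. Values centred within each group gave r between 0.793 and 0.986 for these 8 genes, so r stayed high after the group means were removed.

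Gzmc did not pass. Its r with Cd8a was 0.389 and rho 0.273, with permutation p of 0.210 and 0.392, and r was 0.213 without combination 3 and regorafenib 2. Centred within groups r was 0.618, with a permutation p of 0.0315 before and after adjustment over the 9 relations. Among the other 9 genes the 36 pairs had r from 0.584 to 0.989 with a median of 0.870, and the 9 pairs with Gzmc had r from -0.02 to 0.640 with a median of 0.337. All pairs share library and depth. Gzmc was closest to Gzma, at 0.640.

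**Figure D3:**
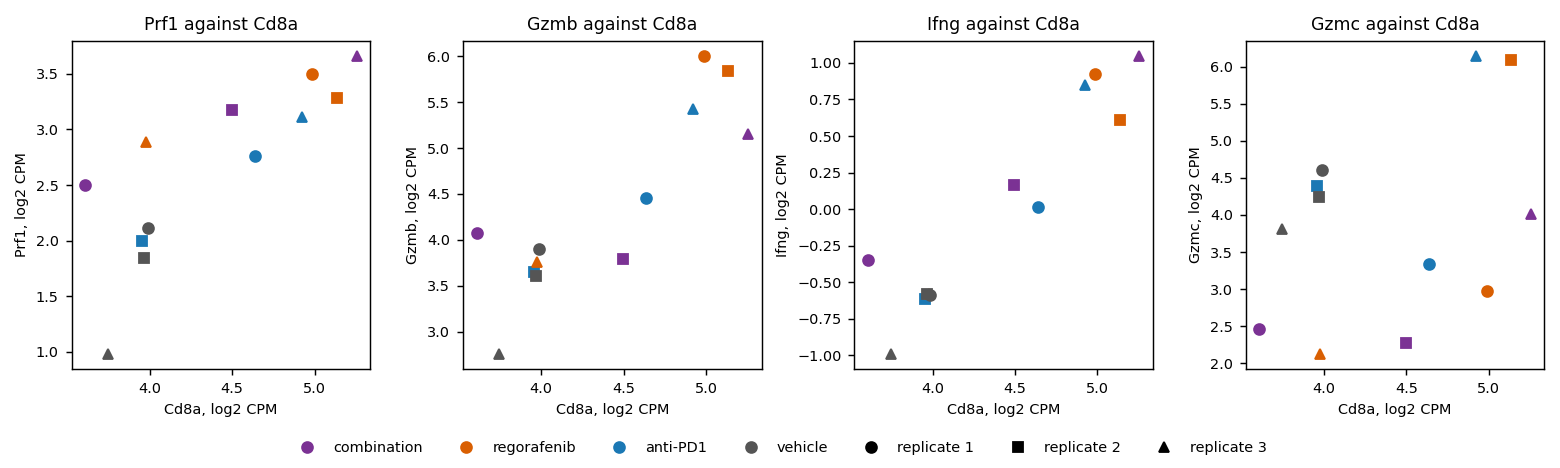
Log2 CPM of Prf1, Gzmb, Ifng and Gzmc (vertical axes) against log2 CPM of Cd8a (horizontal axis) in the 12 libraries, with colours for groups and shapes for replicates. Prf1, Gzmb and Ifng climb with Cd8a (r 0.812, 0.863 and 0.939), and Gzmc scatters (r 0.389).

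A ratio to Cd8a in the same library needs no scaling factor and asks whether a gene's level differed for its level of Cd8a. Prf1 had 0.461, 0.398 and 0.331 reads per Cd8a read in combination, 0.355, 0.276 and 0.468 in regorafenib, 0.271, 0.255 and 0.283 in anti-PD1, and 0.270, 0.226 and 0.143 in vehicle. The 6 libraries with regorafenib ran from 0.276 to 0.468 and the 6 without it from 0.143 to 0.283, an overlap of regorafenib 2 with anti-PD1 3. Of the 3 treated libraries with least Cd8a, the denominator of the ratio, regorafenib 3 and combination 1 had the highest and the second highest ratio, while anti-PD1 2 had the lowest of the 9 treated libraries. Over 9 treated against 3 vehicle libraries the mean log2 ratio of Prf1 was higher by 0.71 (exact permutation test, two-sided, p 0.0136, adjusted p 0.123 over the 9 ratios), and 0 of the 9 ratios passed. Libraries with regorafenib against those without, a contrast added after the values were seen, gave 0.67 for Prf1. The test was an exact permutation within strata of anti-PD1, two-sided with 400 arrangements. Swapping the labels in both strata leaves the size of the difference unchanged, so the smallest possible p is 0.005. By this exact permutation test Prf1 gave p 0.005 and an adjusted p of 0.045 over the 9 ratios, the 1 ratio of 9 that passed. That call held without combination 1, combination 2, combination 3, regorafenib 2, anti-PD1 3 or vehicle 1, and was lost without regorafenib 1, regorafenib 3, anti-PD1 1, anti-PD1 2, vehicle 2 or vehicle 3 (adjusted p 0.09 to 0.135 by the exact permutation test). With Cd3e, a chain of the T cell receptor complex, in place of Cd8a the difference was 0.70 (exact permutation p 0.005, again the smallest possible). Its adjusted p was 0.045 over the same 9 genes and 0.05 over 10 with Cd8a included. Over 10 genes 0.05 is the lowest adjusted p that 1 gene alone at the smallest p can reach, so not passing there was fixed by the design.

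The other ratios were lower in size or wider in spread. Gzmb per Cd8a read was 0.612 to 2.03 in the 6 libraries with regorafenib and 0.501 to 1.42 in the 6 without, a log2 difference of 0.43 (exact permutation p 0.245, adjusted 0.368 over the 9 ratios). Ifng per Cd8a read was 0.0389 to 0.0601 with regorafenib and 0.0332 to 0.0575 without, a difference of 0.29 (exact permutation p 0.075, adjusted 0.225). Gzmc per Cd8a read was 0.213 to 1.93 with regorafenib and 0.404 to 2.34 without, a difference of -1.48 (exact permutation p 0.06, adjusted 0.225). The ratio was below every vehicle library in 5 of the 6 libraries with regorafenib, regorafenib 2 being the exception, and in anti-PD1 1. For the other 5 genes the differences lay between -0.12 and 0.29, with adjusted p of 0.279 or more by the exact permutation test.

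**Figure D4:**
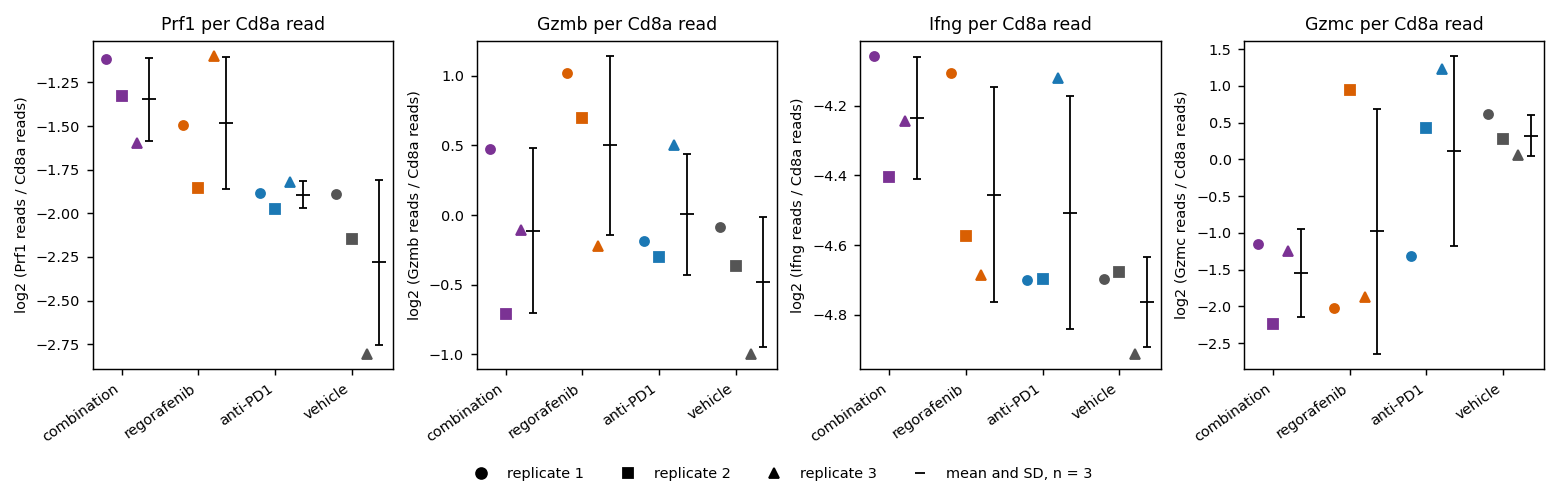
Log2 of reads per Cd8a read in each library for Prf1, Gzmb, Ifng and Gzmc (vertical ranges differ), with the mean and SD of each group of 3. Prf1 is higher in combination and regorafenib, at 0.276 to 0.468 reads per Cd8a read, than in anti-PD1 and vehicle, at 0.143 to 0.283.

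Per length of transcript, Gzmc, Nkg7 and Gzmb had the 3 highest means of the 10 genes in each group, in an order that differed between groups. Their means over the 12 libraries were 24.7 ± 25.7, 20.3 ± 8.99 and 18.1 ± 13.4 CPM per kb of exon (SD, n = 12). Gzma (7.06 ± 6.05), Cd8b1 (7.01 ± 2.88) and Cd8a (6.19 ± 2.53) followed, then Prf1 (2.71 ± 1.28), Gzmk (1.90 ± 0.928), Fasl (1.34 ± 0.489) and Ifng (0.800 ± 0.434), in the same unit. Neighbours within the first 3 and within the next 3 differed by less than their SD. The mean of Gzmc was carried by anti-PD1 3 (79.1 CPM per kb) and regorafenib 2 (75.7 CPM per kb), beside 4.79 to 27.1 CPM per kb in the other 10 libraries. Gzmc averaged 9.80 CPM per kb in combination, the lowest of the 3 genes there, 29.7 in regorafenib, below Gzmb at 31.3, 37.9 in anti-PD1 and 21.3 in vehicle, the highest of the 3 in anti-PD1 and vehicle.

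Among the genes most like the mean of the 10 across the 12 libraries, by Pearson's r of log2 CPM, were Trbc2 (0.990), Ppp1r16b (0.988), Il2rb (0.977), Zap70 (0.976), Rab27a (0.976) and Cd2 (0.975). Trbc2 encodes a constant chain of the T cell receptor, Zap70 a kinase of its signalling, Il2rb a chain of the interleukin receptors and Rab27a a GTPase of granule transport. These values describe likeness over shared libraries and carry no test.

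Markers of several cell types were high in the same libraries as the 10 genes. The summed level of 15 T cell genes was 138 to 325 CPM in combination, 138 to 349 CPM in regorafenib, 187 to 359 CPM in anti-PD1 and 194 to 218 CPM in vehicle. Against vehicle their median log2 fold change was 0.63 in combination, 0.88 in regorafenib and 0.72 in anti-PD1. The medians of the 10 genes were 0.69, 0.99 and 0.75 in the same order. In each, 14 of the 15 were above 0, beside 51.8%, 51.0% and 51.7% of all genes. By edgeR 0 of the 15 passed in combination against vehicle, beside 7.34% of all genes. The sum of 10 NK cell genes was 6.32 to 17.4 CPM in combination, 7.31 to 23.6 CPM in regorafenib, 6.95 to 21.4 CPM in anti-PD1 and 7.49 to 8.39 CPM in vehicle, with Klra4 at 0 in every library. The sum of 6 general leukocyte genes was 246 to 654 CPM in combination, 264 to 761 CPM in regorafenib, 319 to 792 CPM in anti-PD1 and 337 to 380 CPM in vehicle. The highest treated library was combination 3, regorafenib 2 and anti-PD1 3 in each of the 3 sums. In regorafenib 3 and combination 1, where Prf1 lay above vehicle, the T cell, NK cell and leukocyte sums lay below the lowest vehicle library. The NK cell margin was narrow in regorafenib 3 (7.31 against 7.49 CPM), and such sums weigh abundant genes most. Cd8a itself was within the vehicle range (13.3 to 15.8 CPM) in regorafenib 3, at 15.7 CPM, and below it in combination 1, at 12.1 CPM. The sum of 6 mast cell and basophil genes was 428 CPM in regorafenib 2 and 461 CPM in anti-PD1 3, the libraries where Gzmc was highest, and 121 to 262 CPM in the other 10. The part of these cells in the levels of the 10 genes was not tested. Y-linked genes, which the male host carries, summed to 18.3 to 34.6 CPM in combination, 18.1 to 41.7 CPM in regorafenib, 21.3 to 42.3 CPM in anti-PD1 and 25.6 to 33.6 CPM in vehicle. B cell genes summed to at most 10.03 CPM in any library, with Ms4a1, Cd79a, Cr2 and Fcer2a among those too low to test.

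**Figure D5:**
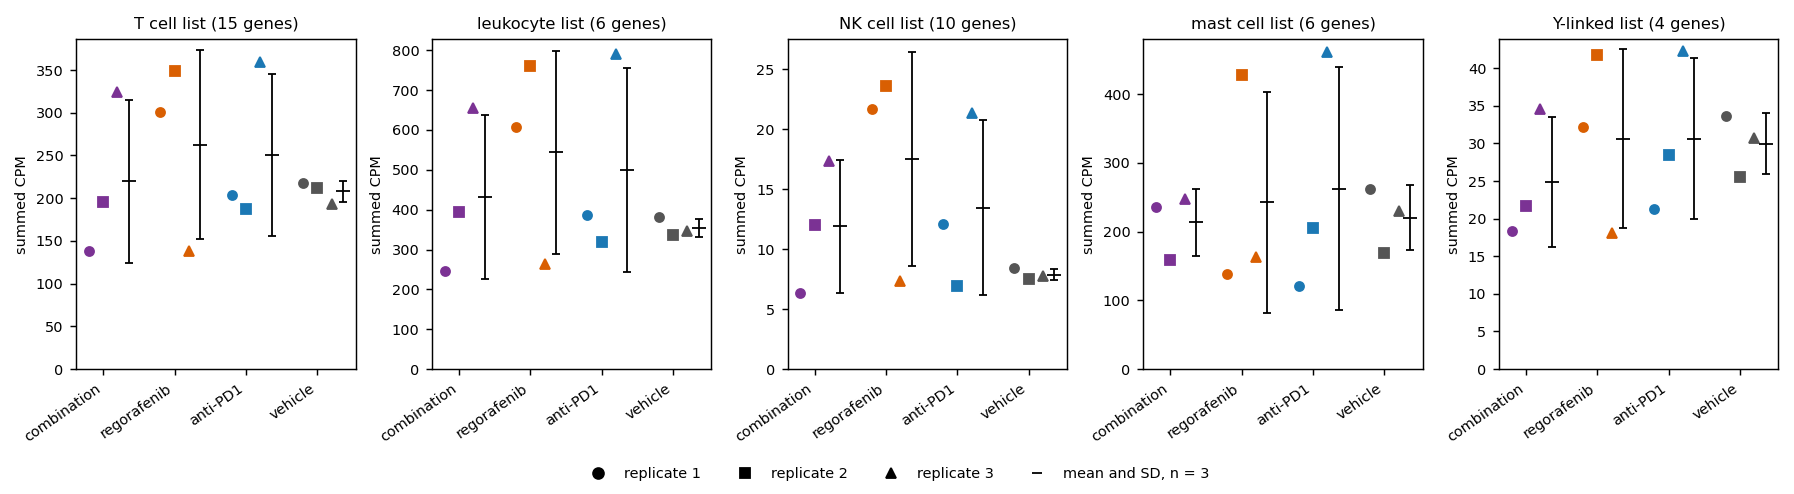
Summed CPM of 5 marker lists in each library (linear axes from 0), with the mean and SD of each group of 3. Combination 3, regorafenib 2 and anti-PD1 3 are the highest of their groups in each of the 5 panels, and the mast cell panel has its highest points in regorafenib 2 (428 CPM) and anti-PD1 3 (461 CPM).

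Other genes of the killing pathway were read from lists around the 10. Granule exocytosis held 12 genes, of which 1 rose in combination against vehicle and in the average regorafenib effect by edgeR, beside 5.03% and 6.16% of all genes higher. In lists of 7 to 17 genes a single call, the number in each list with a call here, is near the 7.34% and 9.49% of all genes called in either direction. That was Unc13d, which encodes Munc13-4, a protein that primes cytotoxic granules for fusion. Unc13d had 61.7 to 70.6 CPM in combination, 55.4 to 58.2 CPM in regorafenib, 38.9 to 49.3 CPM in anti-PD1 and 37.8 CPM in each vehicle library. The 6 libraries with regorafenib lay above the 6 without. Its log2 fold change was 0.78 ± 0.09 in combination against vehicle (adjusted p 0.00951 by edgeR) and 0.58 ± 0.06 for regorafenib on average (adjusted p 0.00298). The average call held without any one of the 12 libraries, and the combination call was lost without vehicle 1, vehicle 2 or vehicle 3 (adjusted p 0.0551 to 0.0717). Combination 1 and regorafenib 3, low for most of the 10 genes, had 62.4 and 58.2 CPM of Unc13d, within the range of the other libraries with regorafenib.

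Among 17 genes of the interferon gamma response 1 rose in both contrasts by edgeR, Nlrc5, the transactivator of MHC class I genes. Nlrc5 averaged 606 ± 88.4 CPM in combination, 521 ± 93.7 CPM in regorafenib, 407 ± 88.9 CPM in anti-PD1 and 292 ± 49.6 CPM in vehicle (SD, n = 3 each). Its log2 fold change was 1.05 ± 0.20 in combination against vehicle (adjusted p 0.0207 by edgeR) and 0.70 ± 0.14 on average with regorafenib (adjusted p 0.0171). The average call was lost without combination 2 (adjusted p 0.0524 by edgeR), and the combination call was lost without combination 1, combination 2, vehicle 1, vehicle 2 or vehicle 3 (adjusted p 0.0514 to 0.101). Of 12 genes of death receptor killing, Cflar, an inhibitor of caspase-8 activation, rose in combination against vehicle by log2 0.35 ± 0.08 (adjusted p 0.0327 by edgeR). Without combination 1, combination 2, vehicle 1, vehicle 2 or vehicle 3 that call was lost (adjusted p 0.0921 to 0.126), and it was lost without a filter on low counts (0.0590). Of 8 squamous genes Krt14, a basal keratin, fell by 0.69 ± 0.18 on the log2 scale in combination (adjusted p 0.0429 by edgeR) and by 0.52 ± 0.13 with regorafenib on average (0.0303). The Krt14 combination call was lost without combination 1, combination 2, anti-PD1 3, vehicle 1, vehicle 2 or vehicle 3 (adjusted p 0.0577 to 0.145). Its average call was lost without combination 2, regorafenib 1, anti-PD1 2, anti-PD1 3, vehicle 1, vehicle 2 or vehicle 3 (0.0521 to 0.0812).

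Of 7 macrophage genes Itgam, an integrin chain, rose with regorafenib on average by log2 0.90 ± 0.22 (adjusted p 0.0328 by edgeR). That call was lost without combination 1, combination 2, combination 3, regorafenib 1, anti-PD1 2, vehicle 1, vehicle 2 or vehicle 3 (0.0518 to 0.0822). In both contrasts 15 of the 19 lists besides the 10 genes held no called gene. These were the lists of other granzymes, granzyme inhibitors, effector transcription factors, naive and memory genes, inhibitory receptors, T cells, CD4 T cells, NK cells, gamma delta T cells, dendritic cells, B cells, mast cells, leukocytes and Y-linked genes, with macrophages for combination against vehicle and death receptors for the average regorafenib effect. The inhibitory receptor list, which includes the nuclear factor Tox, had a median log2 fold change of 0.82 over 9 genes in combination against vehicle. This was above the 0.02 of all genes, with 9 of 9 positive beside 51.8%. The list had 3 of 9 at an unadjusted p under 0.05 beside 27.9%, and 0 of 9 past the adjusted threshold by edgeR beside 7.34%. Its unadjusted count is near the background. Of the 6 granzymes besides those among the 10, Gzmm and Gzme had enough counts to be tested. Gzmm averaged 3.303 ± 0.183 CPM in combination and 2.48 ± 0.221 CPM in vehicle (SD, n = 3 each), with an adjusted p of 0.141 by edgeR, and Gzmn was at 0 in every library.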

How the data were processed

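Raw read counts per Ensembl gene for 12 tumour samples, 3 in each of 4 groups, came from the count table that the authors deposited, of which 0 columns were left unused. The submitters' processing notes name cutadapt 2.4, STAR 2.7.2a and build GRCm38. Which program counted reads, on which strand and with which annotation is not given in the sources used here. GENCODE M21 supplied symbols and coordinates (54,435 identifiers equal with version, 55,227 without), and RefSeq the promoters.

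Genes passing filterByExpr (minimum count 10, minimum total 15) were tested with edgeR 4.0.16 in R 4.3.3. A single robust quasi-likelihood model of the 4 groups, with TMM scaling of the 12 libraries, gave 9 contrasts, two-sided, adjusted by Benjamini-Hochberg within each. It had 8 residual degrees of freedom, and the procedure was tested on simulated data. Library totals of 22591835 to 28209036 counts set the precision. Correlations used log2 CPM with a prior count of 2, and ratios to Cd8a a pseudocount of 0.5 counts. Named genes were the 10, of each list up to 4 tested genes with the smallest p in the mean of treatments against vehicle, and the 8 others most like the mean of the 10. Some of these genes are not reported here. Genes that passed in a list were named too, as were Gzmd, Gzmn and Cd3e, after their values were seen. The genes, lists and tests were chosen with earlier results of these data known. Alternatives were DESeq2 1.42.0, RLE factors, no filter, the replicate number as a block, a covariate from 4 Y-linked genes, other pseudocounts or prior counts, and each library left out.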

Additional observations from a re-analysis of the deposited data

How the results depend on the processing

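Gene counts below are numbers past an adjusted p of 0.05, and counts of the 10 genes follow them where they moved. For the mean of treatments against vehicle edgeR called 1 gene and 0 of the 10. DESeq2 called 891 and 1, the Y-linked covariate 753 and 1, no filter 11, the replicate block 2, and fits without 1 library 0 to 52. Regorafenib against vehicle had 1 gene and 0 of the 10, with DESeq2 425 and 2, the Y-linked covariate 295 and 1, no filter 6, the replicate block 0, and fits without 1 library 0 to 3. Anti-PD1 against vehicle had 0 genes, and 5 with DESeq2. Combination against vehicle had 1246 genes and 1 of the 10, with DESeq2 2614, the Y-linked covariate 2303 and 2, no filter 663 and 0, the replicate block 11 and 0. Without 1 library these were 1 to 1531 and 0 to 1, lowest without vehicle 1, 2 or 3 (3, 1 and 1 genes), combination 2 (13) or combination 1 (103). Combination against anti-PD1 had 326 genes, with DESeq2 1202, the Y-linked covariate 795, the replicate block 0, and fits without 1 library 0 to 474. Combination against regorafenib had 0 genes and the average anti-PD1 effect 0, with DESeq2 4 and 11. The average regorafenib effect had 1610 genes and 1 of the 10, with DESeq2 2808, the Y-linked covariate 3342 and 4, no filter 959 and 0, the replicate block 504 and 0, and fits without 1 library 482 to 1987 and 0 to 1. The ratio contrast for regorafenib had 1 of 9, and 0 to 2 without 1 library.

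Gzmc turned from 0.07 in the mean of treatments against vehicle to -0.0389 with the Y-linked covariate and -0.27 with the replicate block, and ran from -0.65 to 0.28 without 1 library. Its regorafenib value turned to -0.11 with the covariate and ran from -1.66 to 0.99 without 1 library. Without 1 library its anti-PD1 value ran from -0.30 to 1.27, and Nkg7 in combination from -0.0398 to 0.87. With the Y-linked covariate Ifng (combination) and Gzmb, Ifng and Fasl (average regorafenib effect) also passed. RLE factors kept each count within 1.5 times. The causes of these changes were not tested, and with 2 libraries left in a group the spread was pooled over groups.

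Of the same-numbered pairs of libraries, 2 of 18 correlated above 0.1 (r from -0.66 to 0.63), and 0 of 12 libraries correlated best with their own number. With so few libraries per group, these correlations cannot decide whether the replicate numbers pair the samples, and the labels do not say. The block moved the counts as given. With it the calls in combination against vehicle and in the average regorafenib effect were lost for Prf1 (adjusted p 0.105 and 0.0922 by edgeR), Nlrc5 (0.0659 and 0.0509) and Krt14 (0.0979 and 0.0752), as were those of Cflar in combination (0.0764), Itgam on average (0.0630) and Unc13d in combination against anti-PD1 (0.0820). Unc13d kept its calls in the other 2 contrasts. Counts summed over the 12 libraries were lowest for Ifng (319), Fasl (794) and Gzmk (813), which limits their precision.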

Other observations

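Outside the 10 genes, the genes most like Gzmc over the 12 libraries, by Pearson's r of log2 CPM, were Kir3dl1 (0.986), Ly6g5b (0.967), Cst3 (0.962), Slc13a3 (0.962), Lipo3 (0.961) and Fbxo6 (0.959). This comparison was added after the values were seen and carries no test. Kir3dl1 encodes a receptor of the killer immunoglobulin-like family, and Cst3 encodes cystatin C, a secreted protease inhibitor. Their means were 1.03 CPM for Kir3dl1 and 508 CPM for Cst3, against 1.08 and 570.1 CPM over the vehicle libraries.

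Of the 12 granule exocytosis genes, Unc13d was also the 1 gene called in combination against anti-PD1 by edgeR, by log2 0.56, in a list whose median log2 fold change there was -0.23, beside 1.92% of all genes called. The adjusted p was 0.0191, and the call was lost without combination 1, combination 2 or anti-PD1 2 (0.0615 to 0.109). Srgn, which encodes the granule proteoglycan serglycin, had a log2 fold change of 0.94 ± 0.32 in the mean of treatments against vehicle, with an adjusted p of 0.174 by edgeR. In the same contrast Tox, Tigit, Pdcd1 and Ctla4, of the inhibitory receptor list, gave 1.43 ± 0.49, 1.22 ± 0.42, 1.00 ± 0.37 and 1.34 ± 0.52. Of these genes Tox encodes a nuclear factor and not a receptor. The adjusted p by edgeR of Tox, Tigit, Pdcd1 and Ctla4 was 0.176, 0.178, 0.202 and 0.214 in that order. Cd274, which encodes the ligand of PD1, gave 1.08 ± 0.33 (adjusted p 0.152), and Eomes, a T-box factor of effector T cells, 1.24 ± 0.53 (adjusted p 0.245). DESeq2, which called 891 genes in this contrast against 1 by edgeR, called Srgn, Tox, Tigit and Cd274 (adjusted p 0.0422, 0.0405, 0.0415 and 0.0203) and did not call Pdcd1, Ctla4 or Eomes. With the Y-linked covariate edgeR called Srgn, Tox and Tigit (adjusted p 0.0361, 0.0445 and 0.0357).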
